A study of Mus musculus with 36 samples.

Results

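The replication-dependent histone genes of the mouse were followed through 9 RNA sequencing libraries of knee joint tissue. Members were chosen by symbol alone, as genes named for the clustered H1, H2A, H2B, H3 and H4 genes (symbols that open with Hist1h to Hist4h, H2ac, H2bc, H3c or H4c, or that read H1f1 to H1f5). Of 55291 genes in the count table, 66 carried such a symbol, and 65 of them had at least 10 counts summed over the libraries. The other, H2ac1, had no count in any library. All 65 also passed the filter on low counts that left 13823 genes for testing. They comprised 5 H1, 19 H2A, 17 H2B, 12 H3 and 12 H4 genes.

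Core histones H2A, H2B, H3 and H4 form the spool around which DNA winds, and linker histone H1 binds where the DNA enters and leaves it. Cells make them in bulk only while DNA is copied in S phase, from clustered genes without introns whose transcription is switched on by NPAT, a substrate of cyclin E and CDK2. Their mRNAs end in a hairpin in place of a poly(A) tail; the hairpin is bound by SLBP, cut just downstream by a complex that contains U7 RNA, and degraded rapidly when DNA synthesis stops. Depletion of ribosomal RNA keeps such transcripts in a library, whereas poly(A) selection loses most of them. In a mouse knee, dividing cells include the precursors of blood cells in the marrow.

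The study compared 3 groups of 3 biological replicates, all collected at 24 h. Sham mice had no injury of the anterior cruciate ligament (ACL), ACL mice were injured and given 0.9% saline as vehicle, and ACL_PKCi mice were injured and given an inhibitor of protein kinase C (PKC). The labels used here give neither the strain, age and sex of the mice nor the name and dose of the inhibitor. They describe the tissue of these libraries as knee joint, and the protocol of other samples of the series calls it knee joint cartilage. The markers held genes of several tissues: Col2a1, the main collagen of cartilage, ranged from 847 to 16403 normalised counts, Col1a1, of bone and fibrous tissue, from 18357 to 107819.7 and Acta1, of skeletal muscle, from 1115 to 7942. Levels are normalised counts, that is, reads corrected for library size with the TMM method (trimmed mean of M values) and brought to the mean corrected size of the 9 libraries.

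Depth was limited: 11 genes that each held over 1% of some library, among them the 7S RNA genes Rn7s1 and Rn7s2 and 3 U3 RNA genes, took 93.1% to 98.6% of the 124 to 202 M counts per library. Counts outside them numbered 2.54 to 4.67 M in 7 libraries but 6.35 M in ACL_PKCi 1 and 8.92 M in ACL_PKCi 2. These 2 libraries also stood apart in the share of U3 RNA, 3.998% and 1.895% against 0.944% or less elsewhere, and in the TMM factor, 1.73 and 3.64 against 0.63 to 1.01. For the histone genes, comparisons with ACL_PKCi are therefore also given without each of them. For the other gene lists they are given with all libraries only. The histone genes together held 24852 to 131122 counts per library, and each gene held 99 (H2ac21) to 17476 (H3c2) counts over all 9.

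The hairpin was searched for in the annotated sequence of each gene as 6 perfect base pairs that open with GG, closed by a loop of 4 bases that opens with TTT. It was present in 40 of the 65 gene models and in 79 of 55450 mouse genes in all (0.142%). The models of H2bc13 and H2ac15 were among the 25 without it. The 40 hairpins had 6 sequences, split by class. The 30 hairpins of H1, H2A, H2B and H3 genes opened with GGCTC, and 24 of them were identical. The 10 of H4 genes opened with GGCCC or GGTCC. They are shown because they are the feature that sets these mRNAs apart, at least 1 gene per sequence, as DNA from 5′ to 3′ on the coding strand with the hairpin in capitals. The most frequent form is shown for 3 classes. The sequences come from GENCODE M21 transcripts on GRCm38, and the hairpins lie at chr13:23739512-23739527 (H1f2), chr13:23573765-23573780 (H2bc7), chr13:23752820-23752835 (H3c2), chr13:22036300-22036315 (H2bc12), chr3:96220418-96220433 (H2ac20), chr13:23531458-23531473 (H4c8), chr13:22040966-22040981 (H4c9) and chr13:23757366-23757381 (H4c2).
H1f2: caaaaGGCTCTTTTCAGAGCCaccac
H2bc7: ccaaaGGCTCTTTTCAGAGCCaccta
H3c2: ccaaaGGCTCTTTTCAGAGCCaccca
H2bc12: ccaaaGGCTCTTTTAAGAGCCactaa
H2ac20: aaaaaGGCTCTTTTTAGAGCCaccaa
H4c8: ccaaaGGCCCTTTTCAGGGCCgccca
H4c9: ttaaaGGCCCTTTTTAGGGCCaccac
H4c2: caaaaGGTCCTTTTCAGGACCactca

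Promoters also differed by class. RefSeq promoters of GRCm38.p6, 250 bases before to 50 bases after the start, matched 49 members by symbol. Searched on both strands, the octamer ATTTGCAT stood in 11 of the 49 (22.45%) and in 1.74% of all 32851 promoters. All 11 belonged to H2A or H2B genes (5 of 13 and 6 of 12). CCAAT stood in all 40 promoters of H1, H2A, H2B and H3 genes but in 3 of 9 of H4 genes, beside 37.41% of all promoters. TATAAA stood in 29 of the 49 (59.18%), beside 13.62% of all. Overlapping matches of different motifs were each counted. Promoters of neighbouring H2A and H2B genes can overlap, so that the same site counts for both genes. The octamer did so in H2ac12 with H2bc12 and in H2ac8 with H2bc8. TATAAA did so in those pairs, in H2ac15 with H2bc15 and in H2ac7 with H2bc7. A match is a description of letters, not a bound site. The 250 bases before the start are shown for H2ac4, which held all 3 motifs, for H2bc7 and for H4c9, which held TATAAA alone. H2bc7 held CCAAT and lies head to head with H2ac7. The only TATAAA of H2bc7 reads on the opposite strand and is the site also counted for H2ac7. H2ac4, H2bc7 and H4c9 reappear in the comparisons. Motifs on either strand are in capitals, and the H2ac4 promoter is on the plus strand and the other two on the minus strand.
H2ac4, chr13:23750838-23751087: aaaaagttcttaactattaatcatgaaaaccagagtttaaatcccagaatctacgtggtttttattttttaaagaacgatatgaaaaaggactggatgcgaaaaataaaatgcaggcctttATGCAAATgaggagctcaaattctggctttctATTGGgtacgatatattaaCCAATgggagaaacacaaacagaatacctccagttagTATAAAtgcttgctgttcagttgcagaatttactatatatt
H2bc7, chr13:23574208-23574457: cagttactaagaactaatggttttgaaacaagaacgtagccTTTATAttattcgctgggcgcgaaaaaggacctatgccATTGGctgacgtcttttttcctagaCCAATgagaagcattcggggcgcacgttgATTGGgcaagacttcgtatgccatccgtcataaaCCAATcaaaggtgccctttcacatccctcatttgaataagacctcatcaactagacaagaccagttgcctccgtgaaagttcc
H4c9, chr13:22041363-22041612: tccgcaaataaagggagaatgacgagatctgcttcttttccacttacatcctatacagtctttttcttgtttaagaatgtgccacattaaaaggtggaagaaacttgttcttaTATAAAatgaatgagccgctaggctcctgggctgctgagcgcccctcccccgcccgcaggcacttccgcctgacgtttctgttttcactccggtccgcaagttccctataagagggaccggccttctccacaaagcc

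The genes lie in 6 blocks, with gaps of over 100000 bases between blocks. On chromosome 3, 10 members lie between bases 96219865 and 96270132 (block 1). On chromosome 13 there are 19 members between 21715763 and 21837530 (block 2), 5 between 22035164 and 22043676 (block 3), 29 between 23531050 and 23764406 (block 4) and 2 single genes, H2bc1 and Hist1h2al (blocks 5 and 6). Positions are those of the count table on mm10. Near-identical copies share reads: 59 of the 65 gene models held at least 1 window of 100 bases, the read length, found unchanged in another member. The median member shared 37.1% of its windows and 25 members shared over 50%. The exceptions with no shared window were H1f1, H1f5, H2bc18, H2bc21, H4c4 and H4c14. Reads that fit several copies were counted in full at each, so the members are not independent measurements and a summed level counts some reads several times. In addition 6 models overlap another gene on the same strand, among them H2bc6 and H1f4, which overlap each other, and 3 members (H2ac14, H2ac5-ps and Hist1h2al) are annotated as pseudogenes.

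Summed over all 65 genes and scaled by TMM, histone transcripts were lower in all 6 injured libraries than in all 3 Sham libraries, with or without the inhibitor. The sums were 89034, 79543 and 59985 in the Sham libraries, 41294, 51278 and 45935 in ACL and 35237, 51078 and 51249.6 in ACL_PKCi. The mean was 76187 ± 14812 (SD, n = 3) in Sham, 46169 ± 4996 in ACL and 45855 ± 9196 in ACL_PKCi, 1.65-fold lower in ACL and 1.66-fold lower in ACL_PKCi than in Sham. In bulk tissue, fewer cells that make a transcript and less of it per cell cannot be told apart. The separation of every library depends on the scaling: as a share of the counts outside the dominant genes, histone genes held 1.64%, 1.70% and 0.909% in Sham, 0.979%, 1.17% and 1.22% in ACL and 0.740%, 1.47% and 1.42% in ACL_PKCi, so that Sham 3 lay below all ACL libraries and 2 of the ACL_PKCi libraries. With TMM every class showed the same order. The 5 H1 genes summed to 8749, 8093 and 6659 in the Sham libraries, 4375, 5519 and 4746 in ACL and 3617, 4996 and 5929.5 in ACL_PKCi. H2A genes summed to 16513, 16139 and 11309 in the Sham libraries, 7938, 10324 and 9975 in ACL and 6903, 9561 and 9294 in ACL_PKCi. For H2B the sums were 17503, 17110.0 and 12813 in the Sham libraries, 7928, 10465 and 8806 in ACL and 6910.2, 10863 and 10098 in ACL_PKCi. Within each class the lowest Sham library lay above the highest injured library, and Sham 3 was the lowest of its group and ACL_PKCi 1 the lowest of all 9. H3 genes summed to 21988, 19421 and 14776 in the Sham libraries, 9897, 11957 and 10858 in ACL and 8674, 12349 and 12216 in ACL_PKCi. H4 genes summed to 24282, 18780.2 and 14429 in the Sham libraries, 11158, 13014 and 11551 in ACL and 9133, 13311 and 13713 in ACL_PKCi. The classes kept nearly constant proportions: H4 held 23.6% to 27.3% of the sum over the 9 libraries, H3 23.3% to 24.7%, H2B 19.2% to 21.5%, H2A 18.1% to 21.7% and H1 9.78% to 11.6%.

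**Figure D1:**
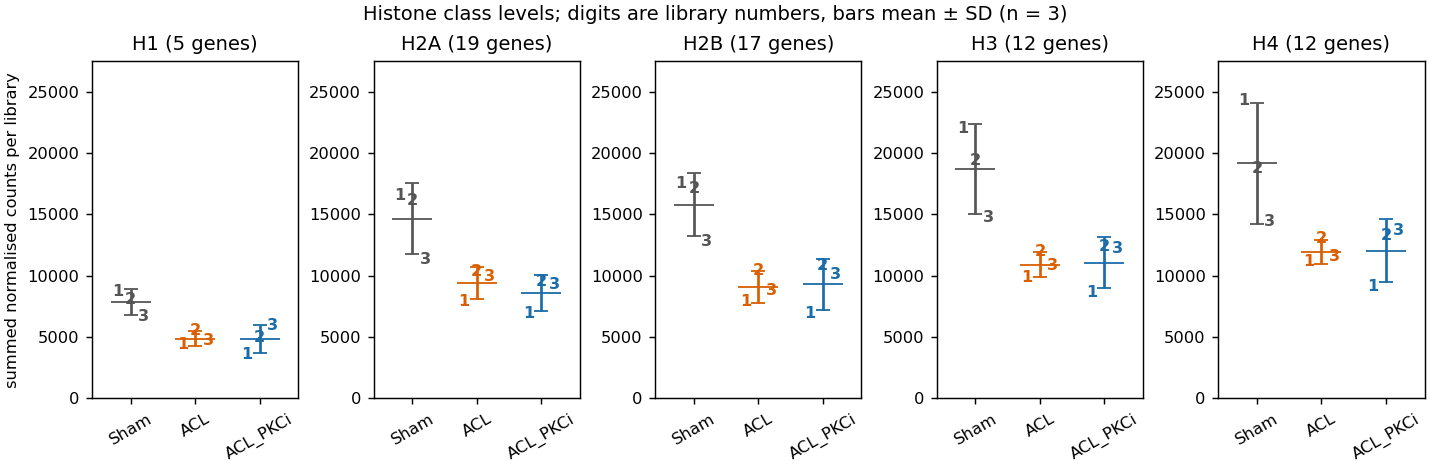
Summed normalised counts of each histone class per library (y axis, same scale in each panel) in the 3 groups; digits mark libraries 1 to 3 and bars give mean ± SD. With TMM scaling the 3 Sham libraries in all 5 panels lie above the 6 injured libraries.

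Per kilobase of gene model, mean levels over the 9 libraries ran from 9.75 normalised counts for H2bc21 to 4993 for H4c12. The median over members was not the same in each library: relative to its Sham mean, a member's log2 level had a median of 0.22, 0.08 and -0.32 in Sham 1 to 3, of -0.88, -0.54 and -0.72 in ACL and of -1.09, -0.58 and -0.59 in ACL_PKCi. Sham 3 was the lowest Sham library for 61 of 65 members. ACL_PKCi 1 was the lowest of its group for 65 of 65. ACL 2 was the highest of its group for 56.

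**Figure D2:**
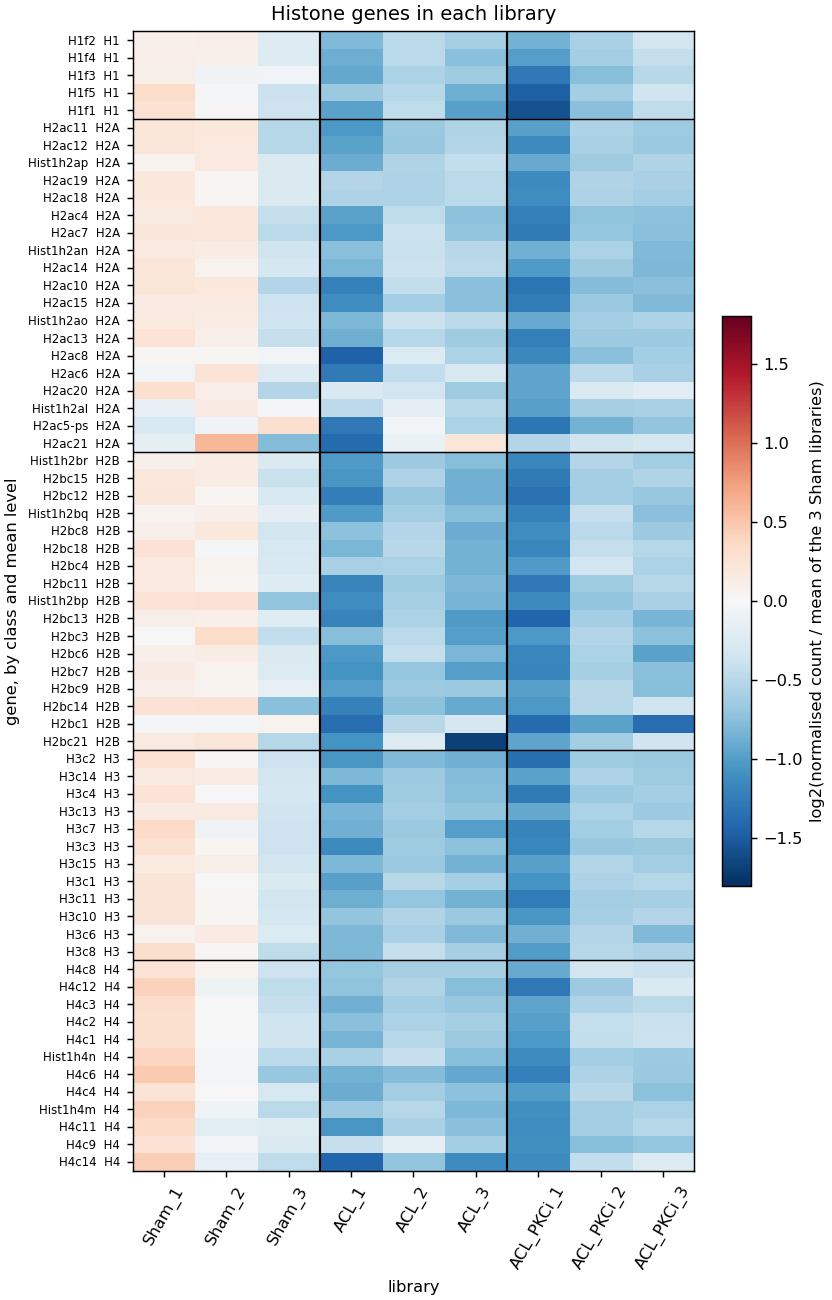
Level of each of the 65 genes (rows, by class and mean level) in each library (columns), as log2 of the normalised count over the mean of the 3 Sham libraries. The injured columns are blue for nearly every gene, palest in ACL 2, ACL_PKCi 2 and ACL_PKCi 3 and darkest in ACL_PKCi 1.

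The question for ACL against Sham was which histone transcripts differ between injured and uninjured knees at 24 h. All 65 members were lower in ACL with TMM scaling (62 with the scaling by totals described next), with a median log2 fold change of -0.71 (1.64-fold) and a range from -1.06 (H4c14) to -0.28 (H2ac21), where the median of all genes tested was -0.02. None passed the threshold of 0.05 for edgeR's adjusted p, which 42 of all 13823 genes passed (0.304%). At an unadjusted p under 0.05, 58 of the 65 were lower, beside 3.81% of all genes. With TMM scaling the groups did not overlap in 54 of the 65, beside 8.76% of all genes that were lower in this way. DESeq2 called 5 of the 65 lower (H2bc7, H2bc12, H3c15, H3c2 and H3c14), beside 0.217% of all genes. The smallest edgeR adjusted p of a member was 0.115, for H2bc7. The edgeR call depends on the fit: 19 members passed when ACL_PKCi 1 was left out and 19 when ACL and Sham were fitted alone.

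The scaling of the libraries sets how large these differences appear. With libraries scaled by their totals outside the 11 dominant genes, a setting added after the data were seen, the median of all genes moved to 0.40 in ACL and 0.53 in ACL_PKCi against Sham, and the split of called genes in ACL_PKCi against Sham moved from 32.1% to 90.4% higher. The histone medians moved with it, to -0.33 and -0.23. Relative to all genes they were -0.73 and -0.76, beside -0.70 and -0.77 with TMM. A change of scaling shifts all genes of a library together, so this likeness could not test the histone difference. Under the scaling by totals, H2ac21, H4c9 and Hist1h2al in ACL, and H2ac20 and H2ac21 in ACL_PKCi, were not below 0. None of the 65 was called under it in either comparison. All values below are with TMM.

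Inhibitor-treated injured knees against Sham gave differences of similar size. All 65 members were lower in ACL_PKCi with TMM scaling (63 with the scaling by totals), with a median log2 fold change of -0.74 (1.67-fold) and a range from -1.21 (H2bc1) to -0.42 (H2ac21), where the median of all genes was 0.03. Of the 65, 10 were called lower by edgeR and none higher. Over all genes 3.95% were called in either direction and 2.68% lower. At an unadjusted p under 0.05, 61 members were lower, beside 10.1% of all genes, and in 55 the groups did not overlap, beside 11.6%. DESeq2 called 34 of the 65 lower, beside 4.22% of all genes. The 10 edgeR calls rest on all libraries together: without any one of ACL 1, ACL 2, ACL 3, Sham 1 or Sham 2 none of the 65 passed, and 1, 6, 3 and 6 passed without ACL_PKCi 1, ACL_PKCi 2, ACL_PKCi 3 and Sham 3. All 65 were lower without ACL_PKCi 1 (median -0.59) and without ACL_PKCi 2 (median -0.84), the libraries that stood apart in depth and U3 share. The members called were H1f3, H2ac4, H2ac14, H2ac15, H2bc6, H2bc7, H2bc9, H2bc13, H3c6 and H4c9, from all 5 classes, with log2 fold changes between -0.91 and -0.72. Each of these calls was kept in only 2 (H3c6) to 6 (H2bc13, H2ac15, H4c9 and H2bc6) of the 16 alternative fits. Both comparisons use the same Sham libraries, so they are not independent of each other.

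**Figure D3:**
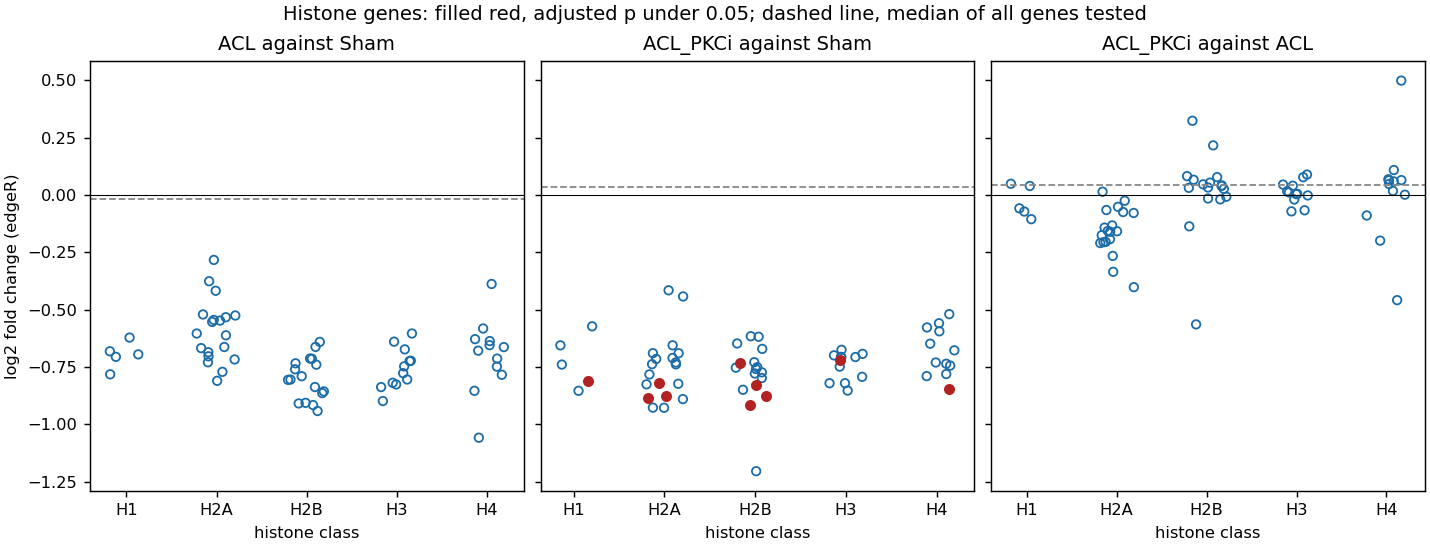
Log2 fold change of each member (points, spread sideways for visibility) by class in the 3 comparisons; filled red points have an edgeR adjusted p under 0.05 and the dashed line is the median of all genes tested. With the TMM scaling shown, every point lies below 0 in both comparisons with Sham (with the scaling by totals, 3 points in ACL and 2 in ACL_PKCi do not), and the points scatter around 0 for ACL_PKCi against ACL.

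Among the linker histones, all 5 H1 genes were lower in both injured groups. H1f2 (chr13:23738808-23740367, plus strand), the most abundant, is one of the histone genes also known to make polyadenylated transcripts in cells that have stopped dividing. In normalised counts it stood at 2628, 2692 and 2095 in the Sham libraries, 1426, 1758 and 1634 in ACL and 1376, 1643 and 1968 in ACL_PKCi. The injured libraries all lay below the Sham libraries, with log2 fold changes ± SE of -0.62 ± 0.21 for ACL against Sham (edgeR adjusted p = 0.325) and -0.57 ± 0.21 for ACL_PKCi against Sham (edgeR adjusted p = 0.145). H1f4 (chr13:23620629-23622558, minus strand) stood at 1894, 1851 and 1462 in the Sham libraries, 947, 1239 and 1029.8 in ACL and 875, 1138 and 1294 in ACL_PKCi. Its groups were also separate, with -0.70 ± 0.21 for ACL against Sham (edgeR adjusted p = 0.26) and -0.66 ± 0.21 for ACL_PKCi against Sham (edgeR adjusted p = 0.0968). H1f3 (chr13:23553262-23560686, plus strand) stood at 1669, 1493 and 1513 in the Sham libraries, 824, 1045 and 996 in ACL and 641, 920.1 and 1105 in ACL_PKCi. The Sham libraries were within 1493 to 1669 and ACL_PKCi 1 was the lowest library, and the log2 fold change was -0.71 ± 0.22 for ACL against Sham (edgeR adjusted p = 0.269) and -0.81 ± 0.22 for ACL_PKCi against Sham (edgeR adjusted p = 0.0476). Its model spans 7425 bases of exon and so has a low level per kilobase, 153.

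H2A pairs with H2B at the outer faces of the nucleosome. The 3 most abundant H2A genes, H2ac11, H2ac12 and Hist1h2ap, share 76.2%, 87.9% and 92.2% of their windows with other members, so their values rest in part on the same reads. H2ac11 (chr13:22042460-22042944, minus strand) stood at 1895, 1867 and 1141 in the Sham libraries, 798, 1032 and 1128 in ACL and 827, 1108 and 1054 in ACL_PKCi. H2ac12 (chr13:22035164-22035568, minus strand) stood at 1921, 1855 and 1156 in the Sham libraries, 841, 1023 and 1136 in ACL and 741, 1095 and 1032 in ACL_PKCi. In both, Sham 3 was only slightly above the highest ACL library. Hist1h2ap (chr13:21833026-21833507, minus strand) stood at 1513, 1635 and 1207 in the Sham libraries, 783, 999.7 and 1067 in ACL and 772, 931 and 997 in ACL_PKCi. Log2 fold changes for ACL_PKCi against Sham were -0.72 ± 0.23, -0.78 ± 0.24 and -0.69 ± 0.20 (edgeR adjusted p = 0.102, 0.0756 and 0.071), and for ACL against Sham -0.73 ± 0.23, -0.72 ± 0.24 and -0.61 ± 0.20 (edgeR adjusted p = 0.292, 0.311 and 0.324).

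The 3 H2A genes called in ACL_PKCi against Sham were less abundant. H2ac4 (chr13:23751126-23751598, plus strand), whose promoter is printed above, stood at 1123, 1154 and 747 in the Sham libraries, 515, 735 and 607 in ACL and 431, 610.0 and 605 in ACL_PKCi. Only ACL 2 came near Sham 3. Log2 fold changes were -0.70 ± 0.23 for ACL against Sham (edgeR adjusted p = 0.292) and -0.88 ± 0.23 for ACL_PKCi against Sham (edgeR adjusted p = 0.0404). H2ac15 (chr13:21753435-21753827, minus strand) shares few of its windows with other members, 10.5%. It stood at 800.0, 808 and 554 in the Sham libraries, 332, 472 and 428 in ACL and 302, 455 and 415 in ACL_PKCi, with every injured library below every Sham library and -0.81 ± 0.22 for ACL against Sham (edgeR adjusted p = 0.195) and -0.88 ± 0.22 for ACL_PKCi against Sham (edgeR adjusted p = 0.0378). H2ac14 (chr13:21721457-21721808, minus strand), annotated as a pseudogene with 91.7% of its windows shared, stood at 999, 898 and 690.2 in the Sham libraries, 487, 662 and 614 in ACL and 427, 547 and 493 in ACL_PKCi. Here ACL 2 lay just below Sham 3 and the ACL_PKCi libraries lay lower, with -0.55 ± 0.20 for ACL against Sham (edgeR adjusted p = 0.395) and -0.82 ± 0.21 for ACL_PKCi against Sham (edgeR adjusted p = 0.0369). At the other end, H2ac21, H2ac20 and Hist1h2al had the smallest differences of the class in ACL. Hist1h2al (chr13:51202727-51203065, minus strand), a processed pseudogene outside the large blocks, stood at 81.4, 99.6 and 88.6 in the Sham libraries, 64.8, 79.6 and 62.8 in ACL and 45.8, 59.2 and 59.7 in ACL_PKCi. Its 3 groups did not overlap and lay in the order Sham, ACL, ACL_PKCi, but no difference between groups passed the test, with -0.38 ± 0.26 for ACL against Sham (edgeR adjusted p = 0.759) and -0.71 ± 0.26 for ACL_PKCi against Sham (edgeR adjusted p = 0.143).

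For H2B, the most abundant gene was Hist1h2br (chr13:21833743-21837530, plus strand), at 2549.9, 2621 and 1988 in the Sham libraries, 1179.7, 1512 and 1405 in ACL and 1059, 1655 and 1539.5 in ACL_PKCi. H2bc15 (chr13:21754123-21754503, plus strand) stood at 2209, 2141 and 1477 in the Sham libraries, 944, 1317 and 1071 in ACL and 802, 1277 and 1332 in ACL_PKCi. H2bc12 (chr13:22035870-22036345, plus strand) stood at 1973, 1750.2 and 1411 in the Sham libraries, 721, 1062 and 937 in ACL and 677, 1106 and 1067 in ACL_PKCi. In these 3 genes all injured libraries lay below Sham 3, the lowest Sham library. Log2 fold changes of Hist1h2br were -0.81 ± 0.22 for ACL against Sham (edgeR adjusted p = 0.191) and -0.75 ± 0.22 for ACL_PKCi against Sham (edgeR adjusted p = 0.0682). Those of H2bc15 were -0.81 ± 0.24 for ACL against Sham (edgeR adjusted p = 0.253) and -0.77 ± 0.24 for ACL_PKCi against Sham (edgeR adjusted p = 0.0856). H2bc12 had one of the largest differences after vehicle, -0.92 ± 0.23 for ACL against Sham (edgeR adjusted p = 0.159) and -0.85 ± 0.23 for ACL_PKCi against Sham (edgeR adjusted p = 0.0541).

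H2bc7, H2bc9, H2bc13 and H2bc6 were called lower in ACL_PKCi against Sham. H2bc7 (chr13:23573736-23574196, minus strand) stood at 649, 614 and 494 in the Sham libraries, 279, 363 and 293 in ACL and 257, 386 and 348 in ACL_PKCi. Its injured libraries lay between 257 and 386, and its log2 fold changes were -0.91 ± 0.21 for ACL against Sham (edgeR adjusted p = 0.115) and -0.83 ± 0.21 for ACL_PKCi against Sham (edgeR adjusted p = 0.0378). H2bc9 (chr13:23541714-23543392, minus strand) stood at 581, 565 and 496 in the Sham libraries, 276, 348 and 345 in ACL and 279, 386 and 322 in ACL_PKCi. It had the tightest Sham group of the 4, with log2 fold changes of -0.76 ± 0.20 for ACL against Sham (edgeR adjusted p = 0.16) and -0.73 ± 0.19 for ACL_PKCi against Sham (edgeR adjusted p = 0.0462). H2bc13 (chr13:21715763-21716143, minus strand) stood at 865, 859 and 690.2 in the Sham libraries, 349, 541 and 397 in ACL and 300.0, 529 and 452 in ACL_PKCi. All injured libraries lay below Sham 3, with -0.91 ± 0.24 for ACL against Sham (edgeR adjusted p = 0.169) and -0.91 ± 0.24 for ACL_PKCi against Sham (edgeR adjusted p = 0.0402). H2bc6 (chr13:23583670-23621124, minus strand), whose model overlaps H1f4, stood at 723, 743 and 562 in the Sham libraries, 329, 503 and 382 in ACL and 301, 455 and 348 in ACL_PKCi, with ACL 2 and ACL_PKCi 2 the highest of their groups and -0.74 ± 0.22 for ACL against Sham (edgeR adjusted p = 0.255) and -0.88 ± 0.22 for ACL_PKCi against Sham (edgeR adjusted p = 0.0378). H2bc1 (chr13:23933773-23934156, minus strand) is known as the H2B of male germ cells. It was among the lowest members, at 46.5, 45.9 and 49.0 in the Sham libraries, 18.3, 33.3 and 38.2 in ACL and 18.0, 24.1 and 18.2 in ACL_PKCi, and its difference in ACL_PKCi was the largest of the 65 but did not pass the test, with -0.64 ± 0.38 for ACL against Sham (edgeR adjusted p = 0.703) and -1.21 ± 0.38 for ACL_PKCi against Sham (edgeR adjusted p = 0.0861).

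H3 and H4 form the core of the nucleosome. H3c2 (chr13:23752267-23752886, plus strand), the most abundant member of all by mean normalised count, stood at 3499.9, 2929 and 2233 in the Sham libraries, 1391, 1663 and 1592 in ACL and 1132, 1844 and 1819.9 in ACL_PKCi. H3c14 (chr3:96246685-96248509, plus strand) stood at 2757, 2702 and 1958 in the Sham libraries, 1409, 1575 and 1434 in ACL and 1272, 1687 and 1585 in ACL_PKCi. H3c4 (chr13:23575763-23577011, plus strand) stood at 2536, 2153 and 1711 in the Sham libraries, 1015, 1363 and 1248 in ACL and 883, 1346 and 1395 in ACL_PKCi. H3c14 lies on chromosome 3 and the other two in block 4, and in each of the 3 the highest injured library lay below Sham 3. Log2 fold changes of H3c2 were -0.90 ± 0.24 for ACL against Sham (edgeR adjusted p = 0.173) and -0.85 ± 0.24 for ACL_PKCi against Sham (edgeR adjusted p = 0.0569). H3c14 gave -0.75 ± 0.21 for ACL against Sham (edgeR adjusted p = 0.195) and -0.71 ± 0.21 for ACL_PKCi against Sham (edgeR adjusted p = 0.0679) and H3c4 gave -0.82 ± 0.23 for ACL against Sham (edgeR adjusted p = 0.2) and -0.82 ± 0.23 for ACL_PKCi against Sham (edgeR adjusted p = 0.0588). H3c15 (chr3:96238108-96239127, minus strand) stood at 1599.9, 1518 and 1118 in the Sham libraries, 804, 888 and 780.2 in ACL and 715, 976 and 919 in ACL_PKCi, with -0.78 ± 0.20 for ACL against Sham (edgeR adjusted p = 0.173) and -0.70 ± 0.20 for ACL_PKCi against Sham (edgeR adjusted p = 0.0664). H3c6 (chr13:23561534-23562369, minus strand), the H3 gene called, stood at 747, 795 and 602 in the Sham libraries, 407, 478 and 413 in ACL and 392, 498 and 412 in ACL_PKCi. Its injured groups were close together and below Sham, with -0.72 ± 0.19 for ACL against Sham (edgeR adjusted p = 0.173) and -0.72 ± 0.19 for ACL_PKCi against Sham (edgeR adjusted p = 0.0465).

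The 3 most abundant H4 genes lay below Sham in every ACL library, and 2 of them overlapped Sham in ACL_PKCi. H4c8 (chr13:23531050-23531519, plus strand) stood at 2719.7, 2395 and 1773 in the Sham libraries, 1422, 1520.3 and 1513 in ACL and 1219, 1824 and 1763 in ACL_PKCi. H4c12 (chr13:21750194-21750505, minus strand) stood at 2771, 1944 and 1514 in the Sham libraries, 1251, 1424 and 1217 in ACL and 854, 1316 and 1728 in ACL_PKCi. H4c3 (chr13:23697635-23698454, minus strand) stood at 2488, 2007 and 1489.8 in the Sham libraries, 1095, 1309.9 and 1245 in ACL and 1038, 1363 and 1419 in ACL_PKCi. ACL_PKCi 2 exceeded Sham 3 for H4c8 and ACL_PKCi 3 exceeded it for H4c12, and H4c3 had no overlap. H4c8 gave -0.63 ± 0.22 for ACL against Sham (edgeR adjusted p = 0.365) and -0.52 ± 0.22 for ACL_PKCi against Sham (edgeR adjusted p = 0.224). H4c12 gave -0.68 ± 0.27 for ACL against Sham (edgeR adjusted p = 0.446) and -0.68 ± 0.27 for ACL_PKCi against Sham (edgeR adjusted p = 0.184) and H4c3 -0.71 ± 0.22 for ACL against Sham (edgeR adjusted p = 0.281) and -0.65 ± 0.22 for ACL_PKCi against Sham (edgeR adjusted p = 0.12). H4c14 and H4c9, whose hairpins have the same sequence, were the H4 genes with the largest differences between ACL_PKCi and ACL, in opposite directions. H4c14 (chr3:96261682-96263311, minus strand), which shares no window with any member, stood at 1185, 787 and 632 in the Sham libraries, 322, 531 and 396 in ACL and 395, 640.0 and 735 in ACL_PKCi. It was lowest after vehicle and overlapped Sham in ACL_PKCi, with -1.06 ± 0.28 for ACL against Sham (edgeR adjusted p = 0.19) and -0.56 ± 0.28 for ACL_PKCi against Sham (edgeR adjusted p = 0.319). H4c9 (chr13:22040636-22041362, minus strand) stood at 1072, 869 and 747 in the Sham libraries, 673, 794 and 588 in ACL and 418, 528 and 550.4 in ACL_PKCi. It was nearer to Sham after vehicle, where ACL 2 exceeded Sham 3, and had the smallest adjusted p of the 65 in ACL_PKCi, with -0.39 ± 0.21 for ACL against Sham (edgeR adjusted p = 0.655) and -0.85 ± 0.21 for ACL_PKCi against Sham (edgeR adjusted p = 0.0332).

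The comparison of ACL_PKCi with ACL addresses which of these transcripts differ when PKC is inhibited after injury. None of the 65 members passed edgeR's adjusted p, beside 0.731% of all genes, and DESeq2 called none, beside 2.57%. With TMM scaling 33 members were lower and 32 higher (17 lower with the scaling by totals), with a median log2 fold change of -0.00 beside 0.04 for all genes. This split rests on single libraries: 15 members were lower without ACL_PKCi 1 (median 0.15), 20 without ACL 2, 53 without either ACL 1 or ACL_PKCi 3, and 59 without ACL_PKCi 2 (median -0.13). At an unadjusted p under 0.05 there was 1 member, H4c9, beside 13.4% of all genes, and in 2 members, H4c9 and Hist1h2al, the groups did not overlap, beside 18.9%. The 95% intervals were not adjusted for the number of genes, and the median member's interval extended 0.48 to either side on the log2 scale. For the 5 members with the smallest unadjusted p, the fold change and its interval were -0.46 (-0.90 to -0.02) for H4c9, 0.50 (-0.10 to 1.10) for H4c14, -0.56 (-1.37 to 0.25) for H2bc1, -0.27 (-0.70 to 0.17) for H2ac14 and -0.34 (-0.89 to 0.22) for Hist1h2al. Their edgeR adjusted p were 0.347, 0.47, 0.547, 0.601 and 0.603. A further difference as large as that between ACL and Sham lay below the interval in 51 of the 65 members, and a return to the Sham level lay above it in 61. Smaller differences in either direction lay within it. Both counts take the ACL against Sham estimate as exact, although it has its own error and rests on the same ACL libraries. Members share reads and no share over all genes is given, so the counts do not exclude missed differences.

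The class medians for ACL_PKCi against ACL lay between -0.16 (H2A) and 0.05 (H4). Of the 19 H2A genes, 18 were lower in ACL_PKCi (13 with the scaling by totals), and of the 17 H2B genes 12 were higher (15 with the scaling by totals). The H2B count too rests on single libraries, with 4 of the 17 higher without ACL 1, 2 without ACL_PKCi 2 and 6 without ACL_PKCi 3, and 11 of the 19 H2A genes were lower without ACL_PKCi 1. H2A and H2B genes often share a promoter: 13 pairs lie head to head, with 176 to 302 bases between their starts. In all 13 pairs the H2B gene had a higher fold change than its H2A partner in ACL_PKCi against ACL (medians 0.05 and -0.14), and in 11 without ACL 3, where the median gap within pairs was 0.06 in place of 0.15. In ACL against Sham the H2B gene had a lower fold change than its partner in 12 of the 13 (medians -0.84 and -0.61), and in 10 without ACL 3. In ACL_PKCi against Sham the H2B gene was the lower in 7 of the 13 (medians -0.76 and -0.78) and in 3 without ACL_PKCi 1. The first 2 comparisons share the ACL libraries and copies within a class share reads, so neither the 13 pairs nor the 2 comparisons are independent, and the class difference was not tested. For example, H2bc14 and H2ac14, whose starts are 236 bases apart, had log2 fold changes of -0.94 and -0.55 in ACL and of -0.62 and -0.82 in ACL_PKCi, both against Sham.

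**Figure D4:**
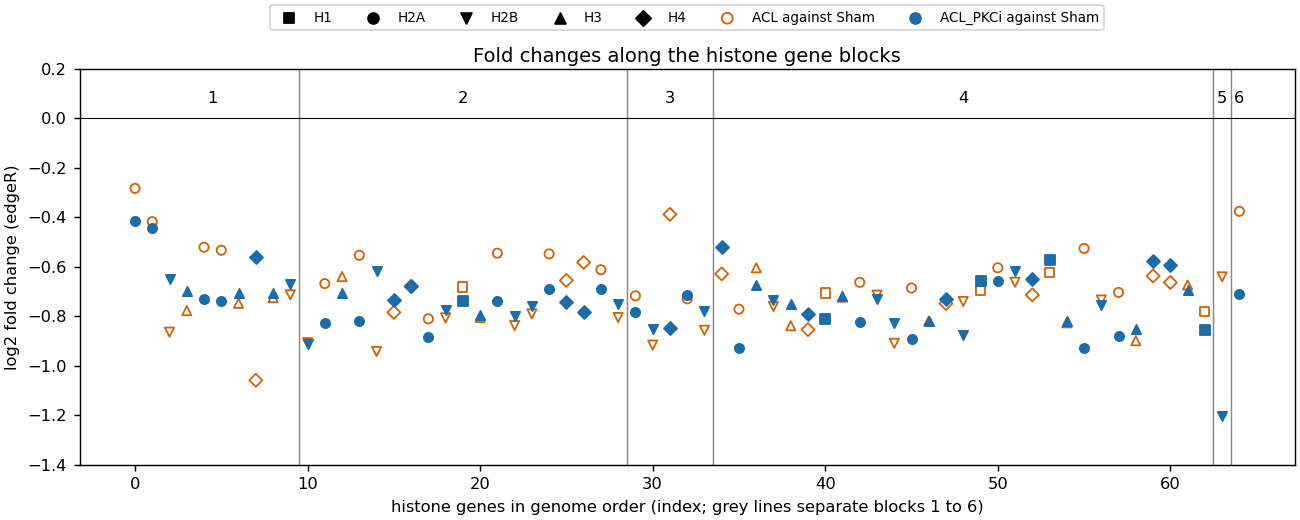
Log2 fold change against Sham of the 65 genes in genome order (x axis, index), for ACL (open orange) and ACL_PKCi (filled blue), with marker shape for class and grey lines between blocks. With TMM scaling both series stay below 0 in each block, from -1.06 to -0.28 in ACL and from -1.21 to -0.42 in ACL_PKCi (with the scaling by totals, 3 and 2 genes do not).

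The lower level was seen in each large block, with and without the hairpin in the model, and among members with few and with many shared windows. Median log2 fold changes in ACL and in ACL_PKCi against Sham were -0.72 and -0.69 in block 1 on chromosome 3, -0.68 and -0.75 in block 2, -0.73 and -0.78 in block 3 and -0.71 and -0.75 in block 4. The 40 models that include the hairpin had medians of -0.72 and -0.73, and the 25 without it -0.68 and -0.75. A model without the hairpin does not show that the mRNA lacks it, since only annotated sequence was searched, with a strict pattern. The 13 members with under 10% of windows shared had -0.71 and -0.66, and the 25 with over 50% had -0.70 and -0.76. Among H2A and H2B genes with a promoter sequence, the 11 with ATTTGCAT had -0.71 and -0.75, and the 14 without it -0.75 and -0.80. These differences between subsets were not tested.

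Of the factors that make and destroy histone mRNA, 15 of 18 were tested and 2 were called, both lower in ACL_PKCi. Slbp, the protein that binds the hairpin and is itself produced in S phase, stood at 388, 300.2 and 285 in the Sham libraries, 221, 256 and 259 in ACL and 102, 183 and 197 in ACL_PKCi. The groups were separate, with Sham highest and ACL_PKCi lowest (with the scaling by totals, ACL against Sham was 0.01), and the log2 fold changes were -0.40 ± 0.24 for ACL against Sham (edgeR adjusted p = 0.708) and -1.02 ± 0.24 for ACL_PKCi against Sham (edgeR adjusted p = 0.0306). ACL_PKCi against ACL gave -0.61 ± 0.24 (edgeR adjusted p = 0.273). Srrt, also known as Ars2, links the mRNA cap to 3′ end formation and was higher in Sham and ACL than in ACL_PKCi, at 551, 455 and 717 in the Sham libraries, 573, 568 and 492 in ACL and 191, 207 and 312 in ACL_PKCi. It fell in ACL_PKCi, with log2 fold changes of -1.21 ± 0.23 against ACL (edgeR adjusted p = 0.0282) and -1.29 ± 0.23 against Sham (edgeR adjusted p = 0.00838). The call of Srrt against ACL was lost in 7 of the 16 alternative fits. ACL against Sham gave -0.07 ± 0.23 (edgeR adjusted p = 0.971). None of the 15 had an unadjusted p under 0.05 in ACL against Sham, and their median log2 fold change was -0.07 beside -0.71 for the histone genes. Npat, the activator of histone transcription, stood at 95.3, 52.4 and 47.1 in the Sham libraries, 61.5, 76.1 and 62.8 in ACL and 35.2, 41.3 and 29.9 in ACL_PKCi, with 0.03 ± 0.32 for ACL against Sham (edgeR adjusted p = 0.992) and -0.87 ± 0.33 for ACL_PKCi against Sham (edgeR adjusted p = 0.161). Tut7, which adds uridines to histone mRNA during decay, stood at 626, 621 and 609 in the Sham libraries, 523, 643 and 533 in ACL and 330.0, 401 and 429.7 in ACL_PKCi and did not pass the test in ACL_PKCi against Sham, at -0.68 ± 0.18 (edgeR adjusted p = 0.0515). Rnu7, the gene of U7 RNA, was at 0 in 7 of 9 libraries, and Zfp473 and Mblac1 did not pass the filter.

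Histone variants made outside S phase from polyadenylated mRNAs were also followed. None of 10 tested was called in any comparison, with medians of -0.37 in ACL, -0.28 in ACL_PKCi against Sham and 0.04 in ACL_PKCi against ACL. Against Sham, 8 were lower in ACL and 8 in ACL_PKCi (5 and 4 with the scaling by totals). At an unadjusted edgeR p under 0.05, 3 were lower in ACL, beside 3.81% of all genes, and 4 in ACL_PKCi, beside 10.1%. The list summed to 3604 to 3659 in ACL, below the 3749 to 5163 of Sham, and ACL_PKCi (2900.5 to 4602.8) overlapped Sham. H3f3b, a gene of replacement histone H3, stood at 1472, 1069 and 954 in the Sham libraries, 1255, 1090.0 and 1179 in ACL and 899, 1513 and 1525 in ACL_PKCi, with 0.01 ± 0.24 for ACL against Sham (edgeR adjusted p = 0.995) and 0.17 ± 0.24 for ACL_PKCi against Sham (edgeR adjusted p = 0.753). H3f3a, the other gene of that histone, stood at 1606, 1246 and 911 in the Sham libraries, 1108, 856 and 873 in ACL and 751, 1279 and 1324 in ACL_PKCi, with -0.41 ± 0.25 for ACL against Sham (edgeR adjusted p = 0.726) and -0.17 ± 0.25 for ACL_PKCi against Sham (edgeR adjusted p = 0.779). H2ax differs from the other variants in that its gene is known to yield a hairpin-ended as well as a polyadenylated mRNA. It stood at 569.7, 521 and 341 in the Sham libraries, 241, 291 and 285 in ACL and 219.8, 316 and 349 in ACL_PKCi, with -0.81 ± 0.23 for ACL against Sham (edgeR adjusted p = 0.223) and -0.70 ± 0.23 for ACL_PKCi against Sham (edgeR adjusted p = 0.107). Of 16 histone chaperones and carriers, 1 was called: Ipo4, an importin that carries H3 and H4 into the nucleus, was higher in ACL_PKCi than in Sham. Ipo4 stood at 59.3, 86.5 and 64.1 in the Sham libraries, 119.6, 162 and 159.6 in ACL and 139.5, 145 and 165 in ACL_PKCi. Both injured groups lay above Sham, with 1.07 ± 0.24 for ACL against Sham (edgeR adjusted p = 0.0849) and 1.09 ± 0.23 for ACL_PKCi against Sham (edgeR adjusted p = 0.0189). Nap1l1 and Rbbp4, the most abundant of the list, gave 0.43 ± 0.20 and 0.10 ± 0.18 for ACL_PKCi against Sham (edgeR adjusted p = 0.269 and 0.817).

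Genes of DNA replication and S phase were followed as a second readout of cycling cells. Of 30 tested, 23 were lower in ACL against Sham (8 with the scaling by totals), none was called, and the median log2 fold change was -0.19. In ACL_PKCi against Sham 29 of 30 were lower (18 with the scaling by totals), with a median of -0.58, and 1 was called lower, Pold1, the catalytic subunit of DNA polymerase delta. Pold1 stood at 171, 161 and 151 in the Sham libraries, 146, 171 and 154 in ACL and 59.2, 89.6 and 97.3 in ACL_PKCi, with -0.04 ± 0.23 for ACL against Sham (edgeR adjusted p = 0.988) and -0.98 ± 0.23 for ACL_PKCi against Sham (edgeR adjusted p = 0.0281). Mki67, a marker of cycling cells, stood at 3045, 2815 and 2348 in the Sham libraries, 1799.5, 3778 and 2545 in ACL and 461, 619 and 1686 in ACL_PKCi. ACL 2 was above all Sham libraries and ACL_PKCi 1 and 2 far below them, with -0.01 ± 0.46 for ACL against Sham (edgeR adjusted p = 0.996) and -1.57 ± 0.47 for ACL_PKCi against Sham (edgeR adjusted p = 0.107). Rrm2, a subunit of ribonucleotide reductase, stood at 854, 594 and 513 in the Sham libraries, 400.4, 585 and 397 in ACL and 223, 412 and 375 in ACL_PKCi, with -0.50 ± 0.26 for ACL against Sham (edgeR adjusted p = 0.653) and -0.96 ± 0.26 for ACL_PKCi against Sham (edgeR adjusted p = 0.0555). In ACL_PKCi against ACL the list had a median of -0.37 with 28 of 30 lower, where the histone genes had a median of -0.00. The difference between the list and the histone genes was not tested.

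Markers of dividing marrow cells were followed beside the histone genes. Immature neutrophil markers summed to 6735 to 12109 in Sham, 4137 to 4659.6 in ACL and 2834 to 4700.2 in ACL_PKCi, so that both injured groups lay below Sham. Of 12 tested, Ltf was called lower in ACL and Elane, Mpo, Prtn3, Camp, Ltf, Ngp and Fcnb in ACL_PKCi, both against Sham. The call of Ltf in ACL was lost in 8 of the 16 alternative fits. Ltf, lactoferrin of neutrophil granules, stood at 1874, 1516 and 2770.3 in the Sham libraries, 593, 939 and 776 in ACL and 397, 591 and 440.0 in ACL_PKCi, with -1.41 ± 0.26 for ACL against Sham (edgeR adjusted p = 0.0288) and -2.11 ± 0.26 for ACL_PKCi against Sham (edgeR adjusted p = 0.00216). B lineage precursor markers summed to 779 to 851 in Sham, 592 to 665 in ACL and 398 to 553 in ACL_PKCi, again below Sham in both injured groups. Of 9 tested, Cd79a and Cd79b, of the B cell receptor complex, were among those called lower in ACL_PKCi against Sham, and none was called in ACL. Cd79a stood at 52.3, 65.5 and 50.9 in the Sham libraries, 66.5, 51.1 and 36.8 in ACL and 9.75, 27.3 and 14.3 in ACL_PKCi, with -0.14 ± 0.39 for ACL against Sham (edgeR adjusted p = 0.969) and -1.66 ± 0.41 for ACL_PKCi against Sham (edgeR adjusted p = 0.0334). Erythroid precursor markers summed to 6912 to 9289 in Sham, 5021 to 12066 in ACL and 3169.6 to 6027 in ACL_PKCi. ACL 2, the ACL library with the highest histone level, was above all others in this list, and Ermap and Add2 of 14 tested were called lower in ACL_PKCi against Sham. Slc4a1, the anion exchanger of red cells, stood at 2487, 2157 and 1641 in the Sham libraries, 1542, 3108 and 1417 in ACL and 662, 1161 and 1588 in ACL_PKCi. Of these 38 markers 35 passed the filter; Vpreb1 and Rag2 were among those that did not, and Hba-a2 was at 0 in ACL 1. Their part in the histone result was not tested.

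Markers of muscle, cartilage and bone were followed as well. Skeletal muscle markers summed to 11896 to 29385 in Sham, 7057 to 9252 in ACL and 3299 to 41730.3 in ACL_PKCi. The highest sum was that of ACL_PKCi 1, the library with the lowest histone level, and the next highest was Sham 3, the Sham library with the lowest. Other libraries differed from this order. All ACL libraries lay below Sham in both muscle and histone sums. ACL_PKCi 2 had the lowest muscle sum (3299), and its histone sum (51078) also lay below Sham. None of 12 was called in any comparison. Cartilage markers summed to 9289 to 27490.0 in Sham, 8904 to 11619 in ACL and 2039 to 5514 in ACL_PKCi. Of 11 tested, Col2a1, Col9a1, Col11a2 and Comp were called lower in ACL_PKCi against Sham, with log2 fold changes of -2.67 ± 0.58, -2.37 ± 0.41, -2.03 ± 0.43 and -1.25 ± 0.31 (edgeR adjusted p = 0.0366, 0.0111, 0.0314 and 0.0412). Matn1 was near 0, at 5.66 normalised counts or fewer, and Matn3 did not pass the filter. Osteoblast markers summed to 65639 to 112472 in Sham, 62329.8 to 72108 in ACL and 20652 to 50401 in ACL_PKCi, with none of 9 called. With the scaling by totals, the medians of the lists moved with that of all genes, and so did their sign for muscle markers in ACL_PKCi, for erythroid, B lineage and osteoblast markers and the S phase list in ACL, and for the variants, the chaperones and the stem-loop factors in both. The part of tissue makeup in the histone result was not tested. Without Sham 3, the median histone log2 fold change in ACL_PKCi against Sham was -0.86.

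**Figure D5:**
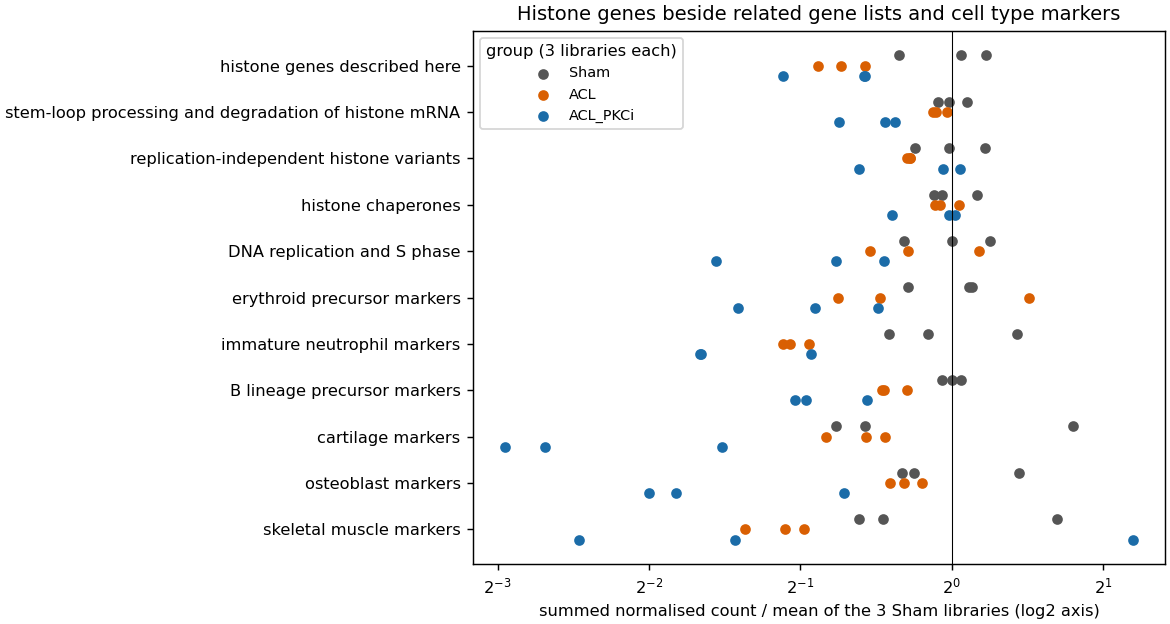
Summed normalised count of the 65 histone genes, of related gene lists and of cell type markers in each library, divided by the mean of the 3 Sham libraries (x axis, log2 scale); each point is 1 library. With TMM scaling the histone genes, the immature neutrophil markers and the B lineage markers separate both injured groups from Sham. The S phase list separates ACL_PKCi but not ACL from Sham, and the variants and muscle markers ACL but not ACL_PKCi. The muscle markers spread widest within ACL_PKCi.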

How the data were processed

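Total RNA was depleted of ribosomal RNA and sequenced as paired reads of 100 bases, per the labels' protocols. The deposited table holds raw counts per gene, made by the authors with featureCounts 2.0.1 over exons of GENCODE M25 with strand setting 2, per the file headers. Multi-mapping reads were counted in full at each location and reads over several genes for each gene, per the file headers, which inflates near-identical histone copies. HISAT2 and mm10 are named in the submitters' processing notes, and the HISAT2 version is not given in the sources used here. Exon lengths come from the same deposited table, as another column per the file headers. Column names were matched to the samples' labels. The 27 value columns of the 2 other tables carry names that match no label and were not used, so only 9 of the 36 samples were analysed here.

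edgeR 4.0.16 in R 4.3.3 fitted all 9 libraries together (filterByExpr, TMM, robust quasi-likelihood F tests, two-sided), with p-values adjusted by Benjamini-Hochberg over all 13823 genes and a threshold of 0.05. The standard error (SE) was taken as the absolute log2 fold change over the root of F. Self-tests on simulated counts preceded the fit. DESeq2 1.42.0, size factors of relative log expression, no filter, 2-group fits, a replicate block, removal of dominant genes and leaving out each library were alternatives, and scaling by totals was added after the data were seen. Nothing states that the replicates came from separate animals beyond the word biological in the labels, so p-values measure the spread between these samples. Members and gene lists were chosen with earlier results of these data known. Values in every library are given for members called in any comparison, for the 3 most abundant of each class and for the 5 with the smallest p in each comparison; of the other lists, for called genes and otherwise the 2 most abundant, with Slbp; called marker genes are mostly named without library values. Npat, H2ax and the pair H2ac14 and H2bc14 were chosen after their values were seen. Sequences were read from GENCODE M21 transcripts and RefSeq promoters with pandas 2.3.3 in Python 3.11.15, and figures drawn with matplotlib 3.10.9.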

Additional observations from a re-analysis of the deposited data

How the results depend on the processing

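With each planned setting other than leaving out a library, all 65 histone genes stayed lower in both injured groups than in Sham. Counts of calls depended on the fit more than the directions did, and the cause was not tested. In ACL against Sham, where edgeR called 42 of all genes (92.9% higher) and 0 histone genes, DESeq2 called 155 (80.6% higher) and 5 histone genes, no filter 262 (62.6% higher) and 17, the fit of only the 2 groups 291 (58.4% higher) and 19, and the replicate block 24. In ACL_PKCi against ACL, where edgeR called 101 of all genes (3.96% higher), DESeq2 called 355 (14.1% higher), no filter 554 (31.6% higher) and the 2-group fit 3. In ACL_PKCi against Sham, where edgeR called 546 of all genes and 10 histone genes, DESeq2 called 885 and 34, no filter 1056 and 29, the 2-group fit 198 and 0, and the replicate block 2 histone genes. Relative log expression factors called 7 of them and removal of the dominant genes 13. For genes of the other lists called in ACL_PKCi against Sham, 231 results over the 16 alternative fits kept the call and 89 lost it.

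Scaling by totals outside the dominant genes, chosen after seeing the data, called 142 of all genes in ACL against Sham, with a histone median of -0.33, and 1088 with 0 histone genes and a median of -0.23 in ACL_PKCi against Sham. Under it H4c9 (0.0017), Hist1h2al (0.0182) and Slbp (0.0052) turned to just above 0 in ACL against Sham.

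Leaving out 1 library at a time gave 1 to 234 calls over all genes and 0 to 19 histone calls in ACL against Sham, 0 to 256 over all genes in ACL_PKCi against ACL, and 141 to 841 over all genes and 0 to 6 histone calls in ACL_PKCi against Sham. The histone medians stayed between -0.86 and -0.62 in ACL against Sham, and between -0.86 and -0.59 in ACL_PKCi against Sham. In ACL_PKCi against ACL the median took either sign, from -0.13 to 0.15, with 15 to 59 of the 65 lower. The labels do not say what a shared replicate number means. Same-numbered libraries deviated from their group means with correlations of -0.24 to 0.07, which cannot exclude a pairing. The replicate block is therefore only a check. Shared reads between copies and 2.54 to 8.92 M counts outside the dominant genes limit the precision of single histone genes.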
